A study of Arabidopsis thaliana with 12 samples.

Results

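The genes described here are those that gave the brightest single-gene signals in water-treated Arabidopsis thaliana plants. A gene belongs to the group if its array probe is annotated with exactly 1 gene and its mean deposited intensity over the 6 water samples was at least 1.0. Of 692 single-gene probes on the array, 68 met this threshold, and 10 of them were left out by the rule, which names 14 loci to be set aside. The remaining 58 genes, each on 1 probe, are the members. The array held 3439 probes in all, of which 870 named several genes and 1877 carried no annotation here.

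The plants were wild type, of the ecotype Wassilevskija. Of 12 samples, 6 came from plants given 30 min of MS (a plant salt medium) plus 60 mM sucrose, called sucrose medium here, and 6 from plants treated with water. Salts and sucrose were given together, so their effects cannot be told apart. The labels give no tissue, age, duration of the water treatment or origin of the replicates. The spread behind each p-value may therefore be technical.

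Sucrose is the main transport sugar of plants and also acts as a signal. Sugar supply is known to change transcript levels of genes for photosynthesis, reserve use and growth, most of which are encoded in the nucleus even where their proteins work in plastids. An array probe's brightness depends on the RNA and on the probe itself, so the order of intensities below is an order of signals and not of transcript numbers. Green tissue markers fixed for the check of tissue had single-gene probes for 4 of 15 genes, all 4 of them loci that the rule sets aside. PSBW of photosystem II had mean intensities of 31.9 in sucrose medium and 44.3 in water. The others were dimmer, with PSAN at 2.33 and 2.71, PSBY at 1.15 and 1.45 and PRK at 1.19 and 1.93. No marker of root (0 of 7), seed (0 of 3) or epidermis (0 of 3) had such a probe, so these tissues could not be checked.

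Sample medians over all probes were 0.422 to 0.459 in sucrose medium and 0.171 to 0.188 in water, on a scale that ends at 100. Intensities were therefore compared after log2 transformation and quantile scaling, which gives all arrays the same distribution, so a fold change below is relative to the other probes. The fit (limma) covered 2915 probes, all 58 members among them, with p-values adjusted over all probes and a threshold of 0.05. Without scaling the median log2 fold change over all probes tested was 1.09, with median centring it was -0.17 and with straight-line scaling 0.18. Water intensities chose the members and are also an arm of the comparison. Counts over the members are therefore a description and support nothing about the group.

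Relative to the other probes, 34 of the 58 genes were lower in sucrose medium, 6 were higher and 18 did not pass the threshold (limma, adjusted p under 0.05). Of all probes tested, 64.4% passed, 31.5% as higher and 32.9% as lower. The members' log2 fold changes ran from -1.50 to 0.71 with a median of -0.38, beside -0.03 for all probes tested. Of the 58 members, 4 passed and were at least 2-fold lower and 0 passed and were at least 2-fold higher, where 9.57% and 9.78% of all probes tested did so. Without scaling 1 member, AT4G22830, passed and was at least 2-fold lower. The share of all probes doing so without scaling was not counted, while 7.75% passed as lower at any fold change. With samples 1 and 2, 3 and 4, and 5 and 6 of each group averaged, because these resembled each other most, 19 members were lower and 3 higher (23.9% and 22.9% of all probes tested). These 3 higher genes were AT2G27290, AT1G16080 and AT5G38310. Blocking by replicate number gave 37 lower and 7 higher members (35.6% and 33.9% of all probes tested).

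The count of lower genes depended on the scaling. Without scaling 26 members were lower and 6 higher, where 7.75% of all probes tested were lower and 73.9% higher. With straight-line scaling 20 were lower and 9 higher, against 25.0% and 40.5% of the probes that could then be tested. With cyclic loess, which fits a curve between arrays, 21 were lower and 8 higher, against 31.0% and 30.5%. The higher genes of both these settings include AT4G31530, which was at the top of the scale in all 6 water samples and read no higher in sucrose medium. With median centring all 58, AT4G31530 at the top of the scale included, passed as lower, against 41.5% lower and 27.7% higher of all probes tested. By an exact permutation test on ranks within each array 35 members were lower and 6 higher, against 34.0% and 29.5% of all probes tested. Quantile scaling also keeps only the ranks within each array, so this count is no separate check on it.

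Of the 34 genes lower after quantile scaling, 14 lost the call without scaling, 14 with straight-line scaling, 13 with cyclic loess and 15 with averaged sample pairs. Lost in all 4 settings were AT1G17160, AT1G33250, AT1G78620, AT2G39360, AT1G49850, AT3G59980 and chr31. AT5G19540, AT2G21720, AT2G38070 and AT3G06570 lost it without scaling alone, AT1G18290, AT3G51320 and AT5G19210 without scaling and with straight-line scaling. AT5G11010, AT3G44020 and AT3G26630 lost it in the 3 settings other than no scaling. XERICO, AT5G50350 and AT1G73120 lost it with cyclic loess and averaged sample pairs, AT1G21500 with straight-line scaling and averaged sample pairs, and AT4G22830 with averaged sample pairs alone.

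Other bright probes gave shares of a like size. Among 285 probes that name several genes or none and also had a water mean of at least 1.0, 48.8% were lower and 9.12% higher, against 58.6% and 10.3% of the members. After quantile scaling, members with a water mean of 1 to 2 were lower in 67.7% of 31 cases, those of 2 to 5 in 57.1% of 14 and those of 5 and over in 38.5% of 13. The other bright probes were lower in 55.9%, 51.2% and 33.3% in the same classes. Deposited values ran the other way. Sucrose medium lay below water without overlap in 2 of 31, 5 of 14 and 7 of 13 members in these classes, and in 22 of 127, 29 of 86 and 36 of 72 other bright probes. The median unscaled log2 fold change of the members was -0.13, -0.35 and -0.53, and that of the other bright probes -0.02, -0.33 and -0.49. Neither these orders nor the differences between members and other bright probes were tested.

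**Figure D1:**
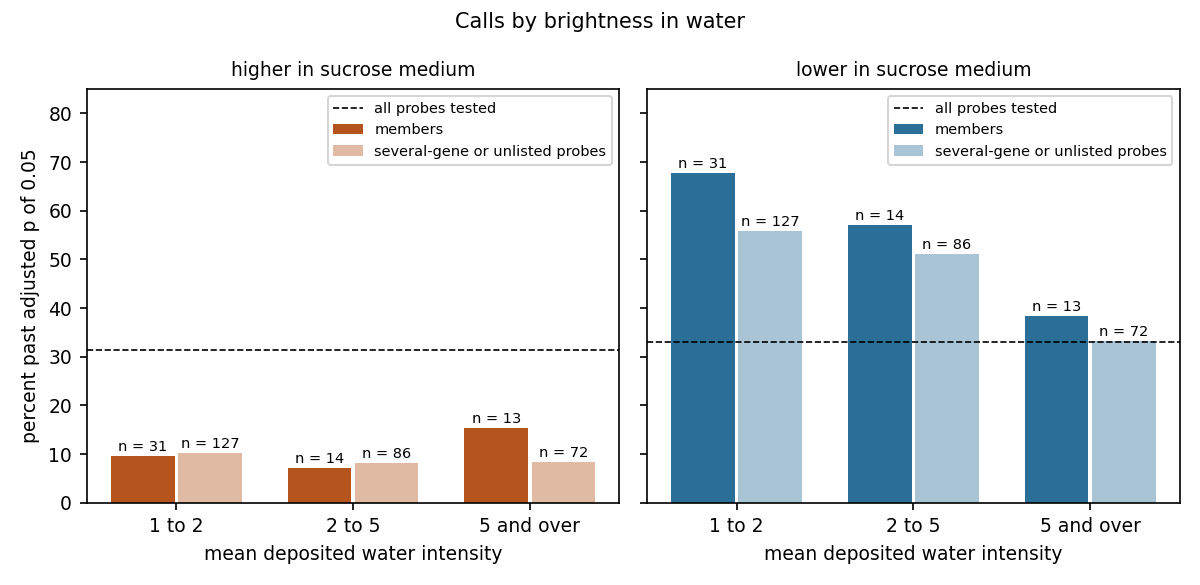
Percent of probes past an adjusted p of 0.05 (limma, quantile scaling) as higher (left) or lower (right) in sucrose medium, by mean deposited water intensity. Dark bars are the members, pale bars the probes naming several genes or none, and the dashed line all probes tested; members were lower in 67.7% of cases between 1 and 2 and in 38.5% at 5 and over, while without scaling the members' median log2 fold change ran the other way, at -0.13 and -0.53.

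The direction of the count also went with the arm used for the choice. The 68 single-gene probes brightest in sucrose medium, with means of at least 1.36, included 28 higher and 17 lower genes, with a median log2 fold change of 0.04. The 68 chosen by water included 7 higher and 39 lower genes, with a median of -0.37. Choosing genes on 4 water samples and reading the change in the 2 left-out samples of each group gave medians of -0.36 (58 genes), -0.29 (60 genes) and -0.41 (57 genes). The origin of the replicates is not given, so the left-out samples may not be independent of those used for the choice. These medians therefore support nothing about the group. Of the 58 members, 39 were also among the 68 brightest in sucrose medium and 19 were not. A mean of at least 1.0 in sucrose medium was found for 52 members.

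The brightest member was AT4G31530, which encodes a plastid protein with an NAD(P)-binding Rossmann fold. It read 83.7, 94.5 and 100 as the lowest, median and highest values in sucrose medium, against 100 in all 6 water samples. The scale ends at 100, and 3 of its sucrose values also lay there, so no fold change is given. AT2G27290, which encodes a membrane protein of the FAM210 family, read 48.3, 50.7 and 59.4 in sucrose medium, against 42.0, 55.7 and 61.4 in water. Its deposited values overlapped and had nearly equal means of 52.7 ± 4.68 in sucrose medium and 52.8 ± 8.48 in water (SD, n = 6 each). After quantile scaling it was 1.63-fold higher (log2 fold change 0.71 ± 0.11, SE; limma, adjusted p = 0.000148), while without scaling it was at 0.01 and with median centring at -1.25. With values of 100 treated as missing it was at 0.0269 and did not pass (adjusted p = 0.817).

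The largest drop of deposited signal among the bright genes was that of AT4G22830, which encodes a protein related to the plastid-encoded Ycf49 of algae. It read 25.1, 34.7 and 41.7 in sucrose medium, against 60.2, 67.1 and 77.5 in water, so the deposited values lay far apart. After quantile scaling the groups overlapped, with sucrose sample 1 at 5.52 on the log2 scale and water samples 1 and 2 at 5.50 and 5.51. The unscaled log2 fold change was -1.04, and after quantile scaling it was -0.40 ± 0.11 (SE; limma, adjusted p = 0.00704). With values of 100 treated as missing it was -0.98 (adjusted p = 5.67e-05), and with averaged sample pairs the adjusted p was 0.0785. Sucrose samples 5 and 6 were its lowest, at 25.1 and 25.3.

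CCL (AT3G26740) is known for a transcript whose stability is controlled by the circadian clock. It read 5.92, 7.60 and 8.10 in sucrose medium, against 9.69, 12.9 and 13.7 in water, with no overlap. It was 1.41-fold lower (log2 fold change -0.50 ± 0.10, SE; limma, adjusted p = 0.00105) and lower in 6 of 6 same-numbered pairs. AT3G26630, which encodes a chloroplast pentatricopeptide repeat protein of the kind that binds organelle RNA, read 6.50, 7.70 and 9.43 in sucrose medium, against 9.32, 11.6 and 13.2 in water. Its highest sucrose value just passed its lowest water value, and it was 1.22-fold lower (limma, adjusted p = 0.0165). With straight-line scaling or cyclic loess it did not pass (adjusted p = 0.11 and 0.47).

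Cyanase, encoded by CYN (AT3G23490), breaks down cyanate to ammonia and carbon dioxide with bicarbonate. It read 2.66, 6.01 and 6.96 in sucrose medium, against 7.31, 8.50 and 12.01 in water, so all sucrose values lay below all water values. Sucrose samples 5 and 6, at 2.71 and 2.66, were far below the other 4, which were at least 5.85. At -0.65 ± 0.27 (log2 fold change, SE) it did not pass the threshold (limma, adjusted p = 0.0530). It passed without scaling (adjusted p = 0.00688), when blocked by replicate number (adjusted p = 0.0172) and with any of sucrose replicates 1, 2, 3 or 4 left out, at adjusted p between 0.0349 and 0.0475, but not with averaged sample pairs (adjusted p = 0.192).

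AT4G29890, which encodes a Rieske protein similar to choline monooxygenase, had the tightest sucrose values of the members after scaling, with an SD of 0.05 on the log2 scale. It read 3.79, 3.92 and 4.13 in sucrose medium, against 5.63, 5.79 and 6.54 in water. The groups did not overlap, and it was 1.25-fold lower (limma, adjusted p = 0.000582). AT5G50350 was 1.305-fold lower, with means of 4.72 ± 0.793 in sucrose medium and 7.14 ± 0.933 in water (SD, n = 6 each; limma, adjusted p = 0.0118). It did not pass with cyclic loess or averaged sample pairs (adjusted p = 0.183 and 0.110).

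Further bright genes did not pass after quantile scaling although their deposited values were lower in sucrose medium. AT3G09080, a WD40-repeat gene, read 13.1, 13.4 and 16.3 in sucrose medium, against 16.4, 20.02 and 21.9 in water, with no overlap. After quantile scaling its log2 fold change was 0.01 (limma, adjusted p = 0.923), and without scaling -0.48. The alpha/beta hydrolase gene AT5G38360 also had no overlap, with 9.96 to 11.8 in sucrose medium against 12.4 to 18.8 in water, at -0.19 after quantile scaling (limma, adjusted p = 0.105). It passed without water replicate 5 (adjusted p = 0.0475). AT4G17070 and AT2G46220 were at 0.16 and -0.04, and without scaling at -0.29 and -0.31.

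**Figure D2:**
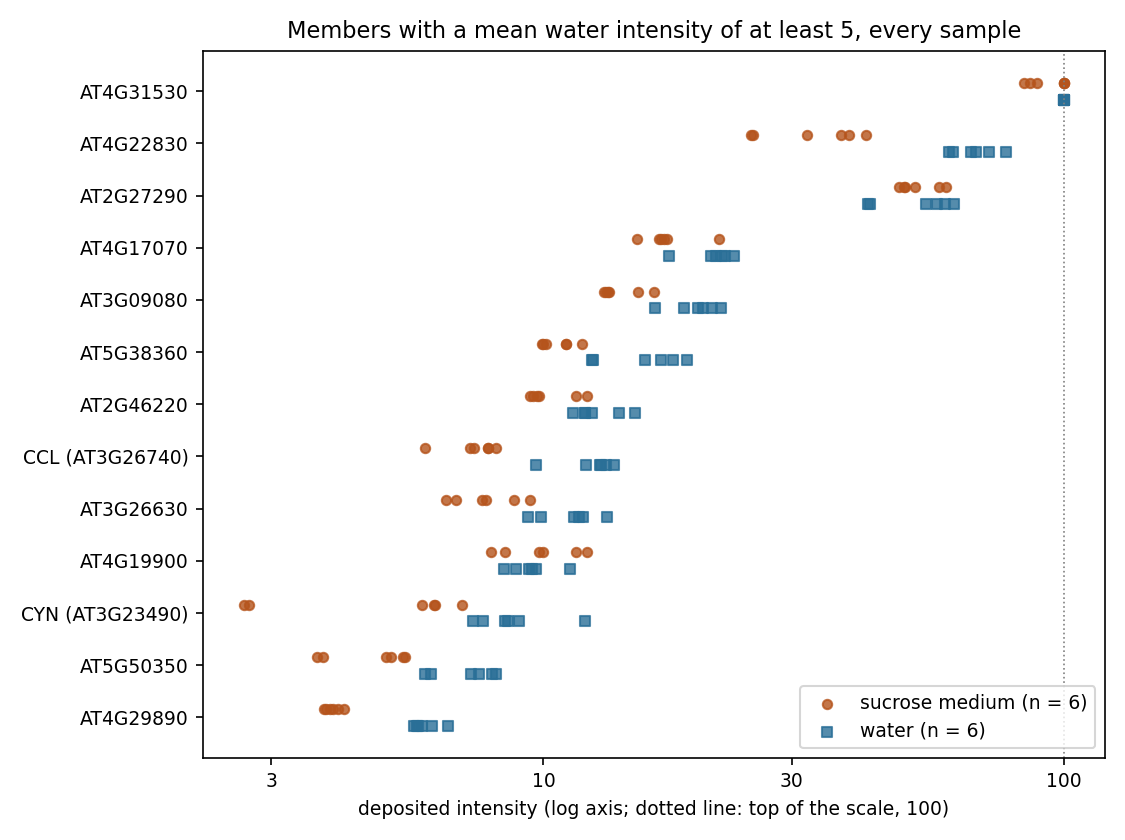
Deposited intensity (log axis) of the 13 members with a mean water intensity of at least 5, in all 6 sucrose samples (circles, upper row of each gene) and all 6 water samples (squares, lower row). The sucrose samples of AT4G22830 lie between 25.1 and 41.7, all below its water samples at 60.2 to 77.5. AT2G27290, AT4G19900, AT4G17070, AT2G46220 and AT3G26630 overlap between groups, and the groups of AT4G31530 meet at the top of the scale.

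Across the members the deposited values of the groups did not overlap in 18 genes. In 14 of them sucrose medium was below water and in 4 above, against 4.43% and 63.6% of all probes tested. The ratio of mean deposited intensities, sucrose medium over water, was below 1 in 43 of 58 members and 430 of 2915 probes tested. Among the 285 other bright probes it was below 1 in 205. Its median was 0.836 over the members, 0.810 over the other bright probes and 2.13 over all probes tested.

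Of the 34 lower genes 13 passed as lower under all 5 scalings. Of the 6 higher genes 4 passed as higher under the 4 scalings other than median centring, which shifted all members down and called all of them lower. These 4 were AT5G38310, AT2G44760, AT1G16080 and AT2G19280. Median centring took away none of the lower calls, so the count of 13 rests on the other 4 scalings. The shares of all probes passing in the same way under several scalings were not counted, so both counts are a description only. Besides AT4G22830, CCL and AT4G29890 the 13 lower genes were APTX, PRA1.B6, AT1G64430, AT4G25290, AT4G13550, AT5G52810, AT2G37510, AT1G32730, AT1G51350 and AT3G52070. APTX (AT5G01310), whose product is similar to aprataxin, a protein of DNA strand break repair, had the lowest log2 fold change of the members after quantile scaling, while without scaling and with median centring AT4G22830, CYN and CCL were lower. It read 0.439, 0.722 and 0.781 in sucrose medium, against 0.752, 1.05 and 1.44 in water. It was 2.82-fold lower (log2 fold change -1.50 ± 0.17, SE; limma, adjusted p = 8.07e-06), and its mean percentile within the array was 66.5 in sucrose medium and 90.4 in water.

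AT1G64430 was 2.38-fold lower (limma, adjusted p = 1.02e-05). It read 0.712, 0.806 and 0.886 in sucrose medium, against 0.829, 1.14 and 1.58 in water, and the groups overlapped at a single water sample. The photolyase-like gene AT4G25290, of the family of light-driven DNA repair enzymes, read 0.984, 1.06 and 1.20 in sucrose medium, against 1.31, 1.69 and 2.15 in water. It was 2.17-fold lower with no overlap (log2 fold change -1.12 ± 0.12, SE; limma, adjusted p = 6.80e-06). AT4G13550, a plastid lipase gene, was 2.099-fold lower (limma, adjusted p = 4.39e-06), with 0.701 to 0.884 in sucrose medium against 0.919 to 1.13 in water. APTX, AT1G64430, AT4G25290 and AT4G13550 are the 4 members at least 2-fold lower after quantile scaling. Without scaling they were at -0.72, -0.54, -0.66 and -0.33 on the log2 scale, none of them 2-fold lower.

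AT5G52810 encodes a reductase that completes the synthesis of pipecolic acid, a signal of plant immunity. It read 1.26, 1.39 and 1.58 in sucrose medium, against 1.87, 2.17 and 2.56 in water, and was 1.85-fold lower (limma, adjusted p = 1.87e-05). PRA1.B6 (AT5G07110), a prenylated Rab acceptor protein of membrane traffic, read 2.25, 2.62 and 2.79 in sucrose medium, against 3.24, 3.60 and 3.97 in water, and was 1.38-fold lower (limma, adjusted p = 0.000355). Neither gene overlapped between groups. AT1G51350, an armadillo-repeat gene, was 1.59-fold lower, with 1.26 to 1.60 in sucrose medium against 1.69 to 2.20 in water (limma, adjusted p = 7.04e-05).

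AT1G32730 read 1.21, 1.34 and 1.45 in sucrose medium, against 1.23, 1.96 and 2.57 in water. Its water values differed by sample pair, with 2.57 and 2.33 in samples 1 and 2 and 1.46 and 1.23 in samples 5 and 6, while its sucrose values stayed close together. It was 1.69-fold lower (limma, adjusted p = 0.000898). AT3G52070 was 1.49-fold lower, with 1.41 to 1.75 in sucrose medium against 1.80 to 2.41 in water (limma, adjusted p = 0.00106).

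**Figure D3:**
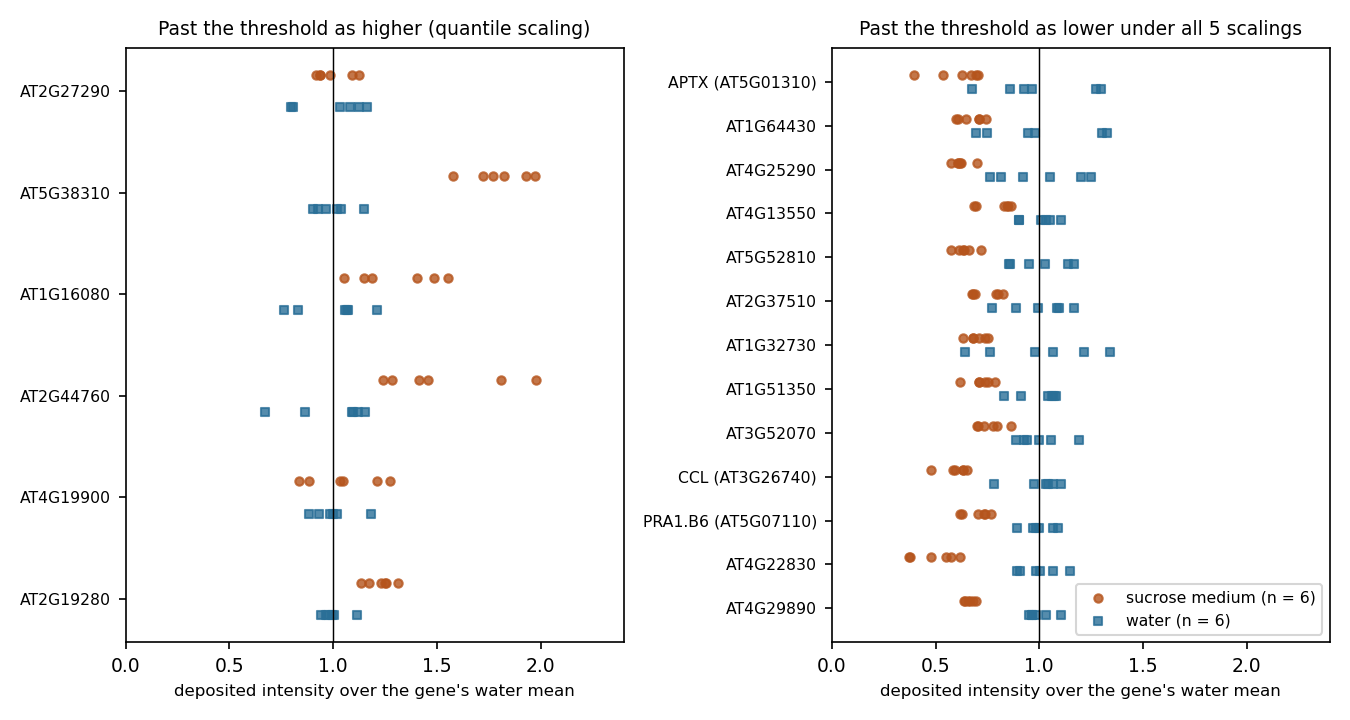
Deposited intensity of each sample divided by the gene's mean over the water samples, for the 6 genes past the threshold as higher after quantile scaling (left) and the 13 past it as lower under all 5 scalings (right). Circles are sucrose samples and squares water samples; AT5G38310, AT2G44760 and AT2G19280 have all sucrose samples above their water samples, and AT2G27290 lies around 1 in both groups.

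Role lists were made after values had been seen, and their counts after quantile scaling stand beside 58.6% lower among all members and 32.9% among all probes tested. Of 6 members in the list of RNA-binding, helicase and pentatricopeptide genes 4 were lower and 1 higher. Their median log2 fold change was -0.39, and -0.07 without scaling. AT2G37510, with an RNA recognition motif, read 1.01 to 1.23 in sucrose medium, against 1.15 to 1.74 in water, and was 1.82-fold lower (limma, adjusted p = 4.63e-05). The DEAD-box helicase gene AT5G19210 was 1.47-fold lower (adjusted p = 0.00127), but did not pass without scaling, where it was at -0.14. The pentatricopeptide repeat gene AT3G51320 had equal deposited means of 1.17 in both groups; its log2 fold change was -0.48 after quantile scaling (limma, adjusted p = 0.00148) and 0.01 without scaling.

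AT2G19280, a further pentatricopeptide repeat gene, went the other way. It read 2.09, 2.29 and 2.42 in sucrose medium, against 1.73, 1.82 and 2.06 in water, with no overlap. It was 1.17-fold higher after quantile scaling (log2 fold change 0.23 ± 0.06, SE; limma, adjusted p = 0.00671), but was at -0.96 with median centring and did not pass with averaged sample pairs (adjusted p = 0.119). Its water values were the tightest of the members after scaling, with an SD of 0.06.

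Of 3 members for proteins of the ubiquitin system, all were lower after quantile scaling and 1, XERICO, without scaling. XERICO (AT2G04240), a RING-finger protein that promotes accumulation of the drought hormone abscisic acid, read 2.30, 2.55 and 3.13 in sucrose medium, against 3.08, 3.81 and 4.26 in water. The groups overlapped by their outermost samples, and XERICO was 1.34-fold lower (limma, adjusted p = 0.00871). It did not pass with cyclic loess or averaged sample pairs (adjusted p = 0.11 and 0.0969). The F-box and kelch gene AT3G06570 was 1.77-fold lower (adjusted p = 0.000225) and the RING-finger gene AT1G49850 1.40-fold lower (adjusted p = 0.0268), though neither passed without scaling. With straight-line scaling, cyclic loess or averaged sample pairs AT1G49850 did not pass (adjusted p of 0.118 to 0.162). AT1G49850 also failed to pass without water replicate 1, water replicate 3 or sucrose replicate 3, at adjusted p of 0.0572, 0.0510 and 0.0601.

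Of 5 genes for kinases, phosphatases and proteins that act on GTPases, 4 were lower after quantile scaling. Of these 4, PRA1.B6 alone also passed without scaling, with straight-line scaling and with cyclic loess. AT2G39360, a receptor-like kinase of the malectin-like family, was at -0.41 ± 0.10 after quantile scaling (log2 fold change, SE; limma, adjusted p = 0.00425) and at 0.13 without scaling. AT1G78620, phytyl-phosphate kinase of tocopherol synthesis, had -0.38 ± 0.12 (adjusted p = 0.0152), and 0.18 without scaling. Deposited means of AT1G78620 were 1.14 ± 0.147 in sucrose medium and 1.01 ± 0.175 in water (SD, n = 6 each), so its signal was not lower before scaling. The ribokinase gene AT1G17160, whose product feeds ribose into metabolism, had -0.29 ± 0.12 (adjusted p = 0.0478). It lost the call in 7 of the 12 leave-one-out fits, those without sucrose replicates 1, 4, 5 or 6 or water replicates 3, 4 or 5, at adjusted p of 0.0556 to 0.103.

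Single members stood for other roles. AT3G44020, a thylakoid lumen protein gene, was 1.303-fold lower (limma, adjusted p = 0.00297), with 1.53 to 1.85 in sucrose medium against 1.65 to 2.41 in water. It did not pass with straight-line scaling, cyclic loess or averaged sample pairs (adjusted p = 0.0943, 0.0752 and 0.0594). AT3G59980, with a tRNA-binding domain, was 1.43-fold lower (adjusted p = 0.0244), and lost the call without water replicate 3 or 4 or sucrose replicate 5 or 6 (adjusted p of 0.0513 to 0.0545). The chromatin remodelling gene chr31 (AT1G05490), whose product acts in RNA-directed DNA methylation, had -0.39 ± 0.11 (adjusted p = 0.00756), and 0.03 without scaling. AT2G21720 and AT2G38070, which were put in no role list, were 1.84-fold and 1.85-fold lower (limma, adjusted p = 0.000111 and 0.000354). Without scaling they were at -0.28 and -0.29 and did not pass (adjusted p = 0.0710 and 0.120).

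Of the 6 higher genes, AT5G38310 had the clearest separation. It read 1.99, 2.26 and 2.48 in sucrose medium, against 1.13, 1.25 and 1.45 in water. It was 1.61-fold higher after quantile scaling (log2 fold change 0.69 ± 0.08, SE; limma, adjusted p = 1.54e-05), at 0.85 without scaling and at -0.41 with median centring. AT2G44760 read 1.71, 1.98 and 2.73 in sucrose medium, against 0.929, 1.51 and 1.59 in water, again with no overlap. It was 1.38-fold higher (adjusted p = 0.0125), with its highest sucrose values in samples 5 and 6, and at -0.64 with median centring. With averaged sample pairs it did not pass (adjusted p = 0.0743).

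AT1G16080 read 5.12, 6.30 and 7.54 in sucrose medium, against 3.71, 5.16 and 5.88 in water, and was 1.54-fold higher (limma, adjusted p = 0.00102). The groups overlapped, since sucrose samples 3, 5 and 6 lay below the highest water sample. AT4G19900, a glycosyltransferase gene, was 1.27-fold higher (adjusted p = 0.0275), with 7.94 to 12.1 in sucrose medium against 8.39 to 11.2 in water. It lost the call without water replicate 1 or 3 or sucrose replicate 3 or 4, at adjusted p of 0.0504 to 0.0609, and without scaling it was at 0.06. With median centring AT1G16080 and AT4G19900 were at -0.87 and -1.20.

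Both members with a role in transport did not pass. AT4G32060 encodes the mitochondrial calcium uptake protein MICU, which regulates calcium entry into mitochondria. It read 1.85, 2.13 and 2.60 in sucrose medium, against 1.19, 1.76 and 2.08 in water, and was higher in 6 of 6 same-numbered pairs. At 0.25 ± 0.12 (log2 fold change, SE) it did not pass after quantile scaling (limma, adjusted p = 0.0980), nor with averaged sample pairs (adjusted p = 0.186), but did when blocked by replicate number (adjusted p = 0.0122). It was past the threshold as higher without scaling, with straight-line scaling and with cyclic loess (0.36, 0.46 and 0.42), and as lower with median centring, at -0.90. AT2G38550, a member of the fatty acid export family of plastid membranes, was at -0.14 (adjusted p = 0.210), and at 0.21 without scaling.

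Among the other members that did not pass were genes with close values in the groups. AT1G73430, a subunit of the COG complex of the Golgi, had deposited means of 2.09 ± 0.186 in sucrose medium and 2.12 ± 0.139 in water. AT4G39690, which encodes MIC60 of mitochondrial membrane contact sites, had 2.14 ± 0.322 in sucrose medium and 2.18 ± 0.310 in water (SD, n = 6 each). Their log2 fold changes were -0.09 ± 0.08 and -0.05 ± 0.12 (SE; limma, adjusted p = 0.359 and 0.738).

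Of 11 members for enzymes 6 were lower and 1 higher (54.5% lower), and of the 28 members put in no list 14 were lower and 4 higher, shares near that of all members. Members not yet described that passed were all lower. AT5G19540 was 1.75-fold lower (limma, adjusted p = 0.00127), with 0.741 to 1.31 in sucrose medium against 1.07 to 1.51 in water. AT1G73120 was 1.19-fold lower (adjusted p = 0.0304) with no overlap, at 3.14 to 3.89 in sucrose medium against 4.14 to 5.57 in water, and did not pass with cyclic loess or averaged sample pairs (adjusted p = 0.149 and 0.171). AT1G33250 (glycosyltransferase-like), AT1G18290, AT5G11010 and AT1G21500 were 1.34-fold, 1.39-fold, 1.28-fold and 1.29-fold lower, and AT1G18290 was at 0.04 without scaling. AT1G07970, AT5G36470, AT3G26580, AT5G55570 and AT4G27250 did not pass, with log2 fold changes of 0.02, -0.12, -0.28, -0.19 and -0.16.

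Within an array the members took a smaller share of the signal in sucrose medium. Their summed intensity was 9.998 ± 0.486% of that of all probes in sucrose medium and 13.3 ± 0.187% in water (SD, n = 6 each), with no overlap between groups. The same water samples chose the members, so a larger share in water was favoured by the rule and supports nothing about the group. AT4G31530, AT4G22830 and AT2G27290 made up about the same part of the members' sum in both groups, 51.2% in sucrose medium and 51.0% in water. A mean percentile of at least 90 within the array was found for 36 members in sucrose medium and 55 in water, where they had been chosen for brightness.

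Some genes differed more between sample pairs than between treatments. AT3G17550, a phosphatase gene of the haloacid dehalogenase family, had the widest spread of the members in each group, with SDs of 1.40 in sucrose medium and 0.87 in water on the log2 scale. It read 0.620 and 0.465 in sucrose samples 1 and 2, against 0.913 and 0.796 in water samples 1 and 2. The other samples of each group read 1.75 to 2.67 in sucrose medium, against 3.19 to 3.50 in water. It was lower in sucrose medium in 6 of 6 same-numbered pairs and did not pass after quantile scaling (log2 fold change -0.88 ± 0.61, SE; limma, adjusted p = 0.223). It passed when blocked by replicate number (limma, adjusted p = 0.00553) and, like all members, with median centring (limma, adjusted p = 0.00966). With averaged sample pairs its adjusted p was 0.419.

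AT1G01080, an RNA-binding protein gene, showed the same samples apart. It read 0.849 and 0.825 in sucrose samples 1 and 2, against 0.831 and 0.802 in water samples 1 and 2, while the other samples read 1.61 to 2.19 in sucrose medium, against 1.31 to 1.85 in water. Its log2 fold change was -0.16 ± 0.36 (SE; limma, adjusted p = 0.714). The median SD of the members was 0.21 in sucrose medium and 0.17 in water, against 0.20 and 0.23 over all probes tested.

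The members nearest the threshold were AT5G66780, AT1G78620 and AT4G13550, with water means of 1.004, 1.01 and 1.02. Just below it lay AT2G04790, AT5G14590 and AT4G12610, at 0.989, 0.962 and 0.952. AT5G66780 read 1.25, 1.36 and 1.48 in sucrose medium, against 0.940, 0.972 and 1.19 in water, with no overlap. Its log2 fold change was -0.02 ± 0.09 after quantile scaling (SE; limma, adjusted p = 0.837) and 0.43 without scaling.

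**Figure D4:**
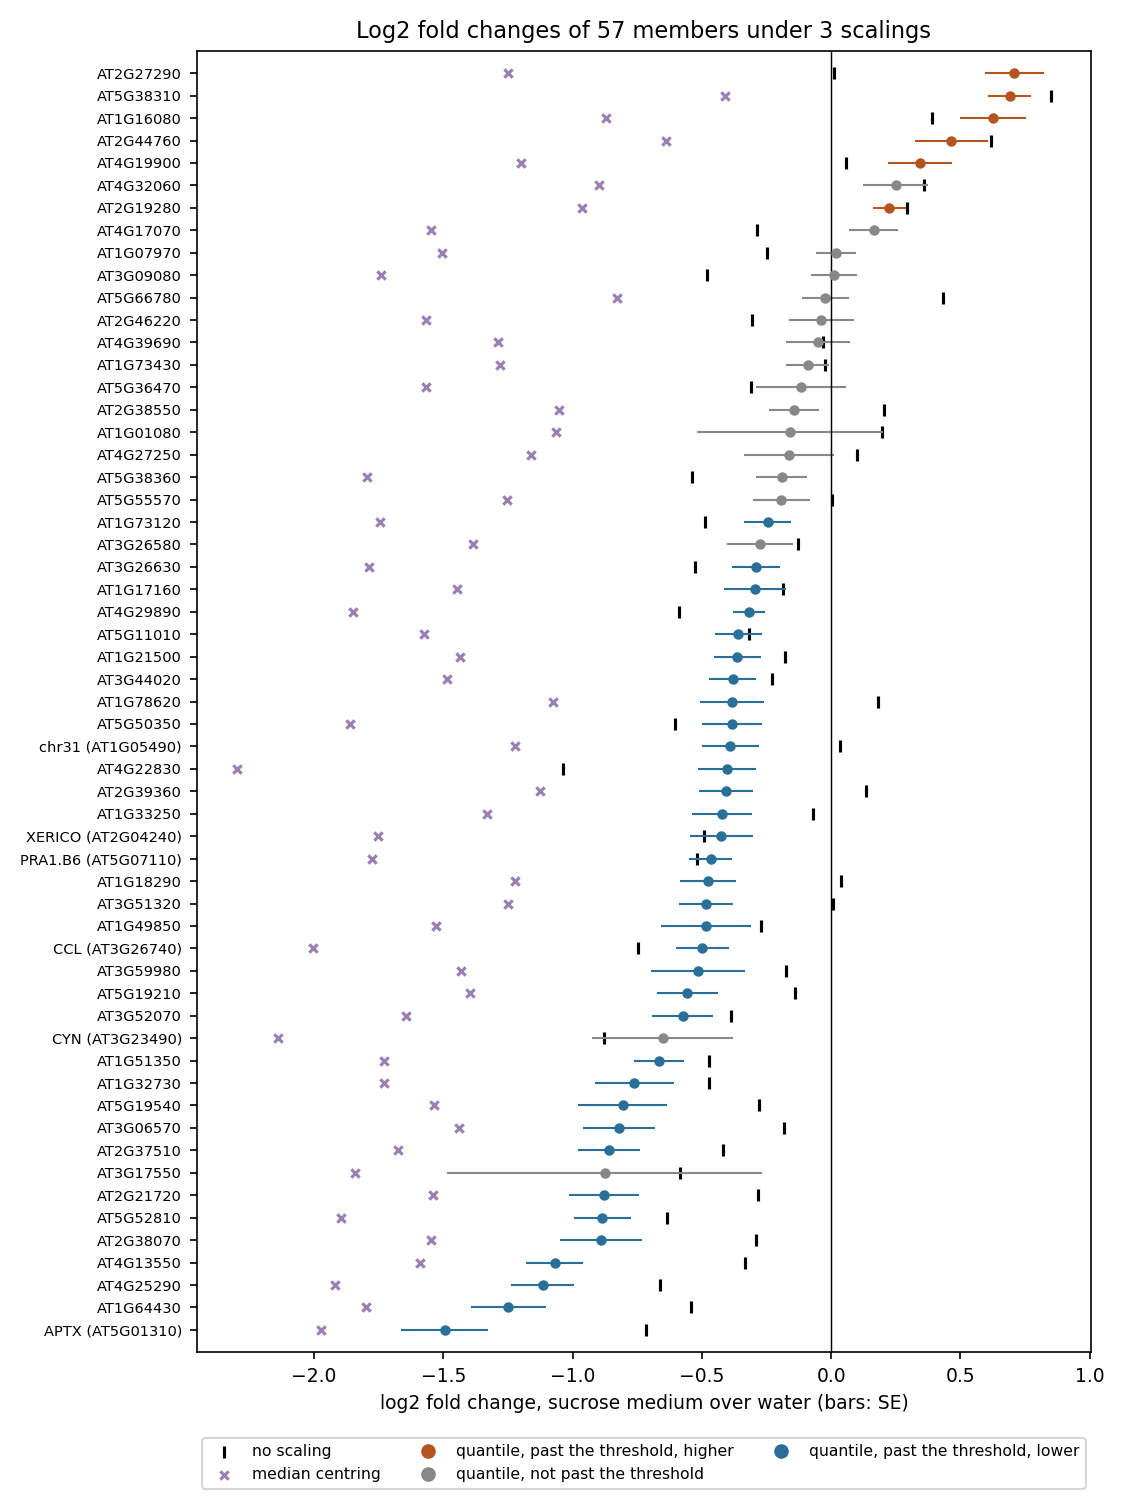
Log2 fold change, sucrose medium over water, of 57 members (AT4G31530, at the top of the scale, is left out), with circles and SE bars for quantile scaling coloured by call, vertical ticks for no scaling and crosses for median centring. Quantile values run from -1.50 for APTX to 0.71 for AT2G27290, and all crosses lie below 0.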

How the data were processed

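For each probe the authors deposited a linear intensity between 0 and 100 per sample. Its background correction and scaling are not given in the sources used here. Zeros were treated as missing, intensities were log2 transformed and quantile normalised, and the 2915 probes that had 4 or more measured values per group were fitted with limma 3.58.1 in R 4.3.3 (two-sided, Benjamini-Hochberg over all probes). Values of 100 (within 0.0005) mark the top of the scale. Groups came from sample titles. Genes came from the platform annotation, matched to TAIR10.1 for all 58 members. Members and lists were chosen with earlier results of these data known. That gene table gives no descriptions, so 30 members were put in role lists from general knowledge after values had been seen, and 28 were not. Named genes were the 12 brightest, up to 8 largest changes each way, up to 4 per role list and 3 on each side of the threshold, 40 members in all; the other members named were picked after their values were seen. Sequence features were not analysed here.

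Same-numbered samples of the groups deviated together in all 6 pairs (correlations 0.280 to 0.450 over 2805 probes), so the numbers were taken as pairing them; those with other numbers but of the same set (1 and 2, 3 and 4, 5 and 6) correlated at 0.162 to 0.282, those of other sets at -0.290 to 0.045. The main fit, the other scalings and the averaged sample pairs did not use this pairing between groups. It entered only the fit blocked by replicate number and the counts over same-numbered pairs. The number of arrays limits precision. The fit was also run on simulated data with independent noise and as many rises as falls. That simulation held neither the resemblance between samples nor the shift of medians between groups, so it cannot test the fit under them. The figures were drawn with matplotlib 3.10.9 (Python 3.11.15).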

Additional observations from a re-analysis of the deposited data

Results flagged for a closer look

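Among 79 groups of 6 values of the genes named by rule, 5 held a sample whose distance to its nearest neighbour took up most of the group's range; chance gives about 1 in 20. AT4G17070 stood at 4.58 on the normalised log2 scale in sucrose replicate 6, against a group median of 4.31. CYN stood at 3.45 in water replicate 3, against a median of 2.94, and its deposited value there was 12.01. AT3G44020 stood at 0.83 in sucrose replicate 2, against a median of 0.61. AT3G51320 stood at 0.34 in sucrose replicate 1, against a median of -0.17, and at 0.54 in water replicate 6, against a median of 0.35.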

How the results depend on the processing

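With 1 replicate left out in turn, 5 to 6 members were higher and 31 to 35 lower, and 1794 to 1845 of all probes passed, against 6, 34 and 1878. Blocking by replicate number gave 7 higher and 37 lower members; besides CYN, AT4G32060 and AT3G17550, AT3G26580 then passed (adjusted p = 0.0183). The averaged sample pairs left 3 higher and 19 lower, and why calls were lost was not tested. Median centring gave 0 higher and 58 lower, straight-line scaling 20 lower and cyclic loess 21 lower. Values of 100 as missing left 57 members that could be tested, with 4 higher, without AT2G27290 and AT4G19900 (limma, adjusted p = 0.817 and 0.151), and 36 lower. In that setting 1900 of 2908 probes passed in either direction, and their shares by direction were not counted. The counts stayed within 1.5 times under no scaling, 0.05 added before log2, values of 100 as missing, and both other filters on missing values.

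Log2 fold changes that changed sign are given here; the cause was not tested. Median centring gave -1.25 for AT2G27290, -1.55 for AT4G17070, -1.74 for AT3G09080, -1.20 for AT4G19900, -0.87 for AT1G16080, -0.96 for AT2G19280, -0.90 for AT4G32060, -0.64 for AT2G44760 and -0.41 for AT5G38310. No scaling gave -0.29 for AT4G17070, -0.48 for AT3G09080, 0.0336 for chr31 (AT1G05490), 0.21 for AT2G38550, 0.00832 for AT3G51320, 0.13 for AT2G39360, 0.18 for AT1G78620 and 0.43 for AT5G66780. Straight-line scaling gave -0.17 for AT3G09080, 0.15 for AT2G38550, 0.0130 for AT1G78620 and 0.36 for AT5G66780. Cyclic loess gave 0.15 for AT2G46220, 0.00912 for AT2G38550 and 0.13 for AT5G66780. Adding 0.05 gave -0.0165 for AT3G09080, and values of 100 as missing gave -0.24 for AT4G17070 and -0.27 for AT3G09080. Leaving out 1 replicate gave -0.0415 to 0.0586 for AT3G09080, -0.101 to 0.0138 for AT2G46220 and -0.0661 to 0.0226 for AT5G66780.

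Choosing genes by the median of the water values gave 57 members, and by every water sample at least 1.0 gave 46. The genes chosen on 4 water samples and by sucrose intensity were alternatives added after the data had been seen. Signal over background was not given, so its limit on dim values is unknown.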
